A study of Mus musculus with 12 samples.

Results

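Mir142 is a microRNA gene on mouse chromosome 11 that is expressed throughout blood cells, and its products repress target messenger RNAs in dendritic cells, lymphocytes and granulocytes. The genes described here are 39 of its neighbours on that chromosome, taken from a list of names in the order of the locus, from Heatr6 on the lower-coordinate side to Dgke on the higher-coordinate side. All 39 lay on chromosome 11 in the RefSeq table, 24 on the lower side of Mir142 and 15 on the higher side. Of these, 36 had at least 1 probe set that carried their symbol alone, with 71 probe sets in all, out of 28898 such probe sets for 17097 genes on the array. Supt4a, Cltc and Rps6kb1 had none and are not analysed here. Each probe set was compared between knockout (KO) and wild type (WT) in both stimulation states, to look for local effects of the deletion or of strain DNA that travels with a modified locus.

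RNA came from dendritic cells (DCs), positively selected from the spleens of 10-week-old male C57BL/6 mice, and was hybridised to Affymetrix arrays. There were 4 groups of 3 arrays: unstimulated WT, WT given lipopolysaccharide (LPS, a bacterial cell wall component), unstimulated miR-142 KO, and miR-142 KO given LPS. The WT animals were littermates of the KO animals, and no source used here states how the allele was made, whether only some cells carry it, or the dose and time of LPS. The sample descriptions speak of T cells while the titles and the cell type field say DCs. All 11 measured DC markers lay above 2.87, the median of all log2 values, on every array, as did 4 of 6 T cell markers. The same held for all 9 macrophage, all 4 platelet and 4 of 5 B cell markers, and for 6 of 14 neutrophil markers. It therefore does not single out DCs.

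When a gene is deleted by targeting in embryonic stem cells and the line is then bred onto another strain, a stretch of the stem cells' own chromosome stays linked to the deleted gene. Genes in such a stretch can differ from those of the wild type by strain variants, and a probe that overlaps a variant can read differently. A deletion can also change nearby genes directly, through removed regulatory DNA or an inserted cassette. Both kinds of difference are local, so the position of each gene relative to Mir142 is given with its values. Strain variants were not measured here, and their part in any difference was not tested.

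The deleted gene is shown first because positions below are counted from it. In RefSeq GRCm38.p6 the hairpin lies on the + strand at chr11:87756864-87756927 and spans 64 bases. Capitals in the hairpin mark the mature arms. In the mature sequences capitals mark the seed, bases 2 to 8, which pairs with target messages.
Mir142 hairpin: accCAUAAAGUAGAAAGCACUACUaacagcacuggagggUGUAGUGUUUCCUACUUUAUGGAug
mmu-miR-142a-5p: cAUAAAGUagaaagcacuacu
mmu-miR-142a-3p: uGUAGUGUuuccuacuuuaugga
The 5p arm has 21 bases and the 3p arm 23, and their seeds differ. No probe set carried the symbol Mir142 alone, so the deletion itself could not be checked on these arrays.

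Along the chromosome the interval from Heatr6 to Dgke held 143 annotated genes, 69 of them protein coding. By annotated start sites, Heatr6 lay 4003.3 kb from the hairpin on the lower side and Dgke 1303.9 kb on the higher side. The nearest listed neighbours on the higher side were Mpo at 36.9 kb, Lpo at 69.2 kb, Mks1 at 96.3 kb and Epx at 118.6 kb. On the lower side they were Supt4a at 19.3 kb, Rnf43 at 57.0 kb and Hsf5 at 139.7 kb, then Mtmr4, for which only the gene order is given. The interval also held 28 other genes with 40 probe sets, which serve as a comparison.

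Values are the deposited log2 signals, so a difference of 1 is a doubling. Because probes bind with different strength, the level of one probe set says nothing about expression against another, and the sets of a gene are called brighter or dimmer only to tell them apart. The 71 probe sets had means from 1.19 to 7.71 over the 12 arrays, with 37 above and 34 below 2.87, the median of all values. Low values on this scale carry little information about expression. One array stood apart. KO LPS array 2 correlated with the others at a median of 0.942, where the rest were at 0.974 to 0.986. Its Gapdh signal from the 3′ end exceeded that from the middle by 3.04, against 1.53 to 1.86 elsewhere, a measure that rises when RNA is broken. It was the lowest or highest of the 12 arrays for 37 of the 71 probe sets (52.1%), beside 42.2% over all probe sets. Many of the values below that it moved are also given without it. A value without such a second figure may still depend on this array.

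Across both stimulation states together, 3 of the 71 probe sets passed the test. The haem peroxidase gene Mpo and the deubiquitinase gene Usp32 were higher in KO, and 1 of 2 probe sets of the phosphatase gene Mtmr4 was lower. A call is a Benjamini-Hochberg adjusted p under 0.05 in limma over all 28898 probe sets. The share of all probe sets called in this comparison was 2.12% (614 probe sets), against 4.23% of the neighbours'. Calls towards higher values made up 1.35% of all probe sets and 2 of the 71, and calls towards lower values 0.775% and 1 of the 71. At an unadjusted p under 0.05 the count was 10 of 71, or 14.1%, beside 16% of all probe sets. With only 3 calls the neighbours' share is imprecise, and its difference from the background was not tested. With the unstimulated and LPS array of each genotype and number averaged first, limma called 0 of the 71 and 60 of all probe sets. At an unadjusted p under 0.05 it then had 6 of the 71 and 12.2% of all. With the same pairs as a random block it called 2 of the 71 and 406 of all.

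Within each state no probe set of these genes passed in the reported fit. Fits that left out 1 array called 0 to 1 of them unstimulated and 0 to 2 after LPS. Unstimulated, limma called 0 of 71 where 0.163% of all probe sets were called, and 5 of 71 had an unadjusted p under 0.05, beside 8.49% of all. After LPS it again called 0 of 71, with 0.322% of all called, and 9 of 71 had an unadjusted p under 0.05, beside 13.9%. In unstimulated cells 12 of 71 probe sets had all KO arrays on one side of all WT arrays, which 16.5% of all probe sets also showed. After LPS this count was 6, or 8.45%, where 17.1% of all probe sets did so. The groups lay apart in the same direction in both states for 4 probe sets, of Mpo, Usp32, Mtmr4 and Dgke, or 5.63% beside 4.52% of all.

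**Figure D1:**
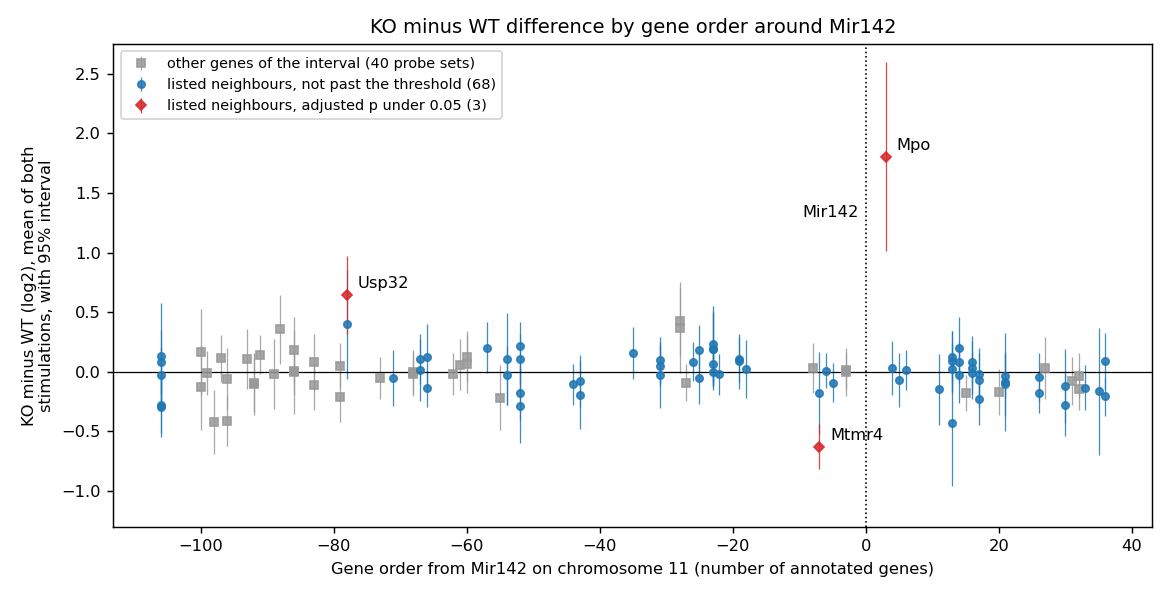
KO minus WT difference (log2 signal, mean of both stimulation states, bars are 95% intervals) for each probe set, against the order of annotated genes counted from Mir142. Most intervals cross 0 on both sides of the dotted line, and Mpo at 1.80, Usp32 at 0.65 and 1 Mtmr4 probe set at -0.63 stand out from the rest.

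Medians near 0 were found on both sides of Mir142 and both near to and far from it. Single genes that differ in either direction can leave such a median near 0. The median difference over the 71 probe sets was -0.001, and over all probe sets -0.016. It was 0.037 for the 42 probe sets on the lower side and -0.032 for the 29 on the higher side. Within 500 kb of Mir142 the 26 probe sets of 15 genes had a median of 0.013 and a median absolute difference of 0.081. Beyond 500 kb these values were -0.024 and 0.120 over 45 probe sets, and over all probe sets the median absolute difference was 0.098. The medians without KO LPS array 2 were -0.012 over the 71, -0.005 on the lower and -0.026 on the higher side, -0.027 within 500 kb and -0.007 beyond, and -0.011 over all. Of the 40 probe sets of other genes in the interval limma called 0, and 6 had an unadjusted p under 0.05. The lowest adjusted p among them was 0.0541, for Acaca, a fatty acid synthesis enzyme gene far out on the lower side. It belonged to the dimmer of 2 Acaca sets, at -0.41. The brighter set differed by -0.06 (limma adjusted p = 0.859).

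Chromosome 11 as a whole lay inside the range of the chromosomes. It had 57 of 2301 probe sets called in the averaged comparison, or 2.48%. Chromosome Y had 0 of 22 called in limma, and the others ranged from 1.14% for chromosome 18 to 2.86% for chromosome 6. The 95% interval of the averaged difference lay within 1 log2 unit of 0 for 70 of the 71 probe sets, all but Mpo, beside 96.8% of all probe sets. It lay within 0.5 for 57 of them, or for 28 of the 37 with a mean above 2.87, and its median half-width was 0.227. These intervals take no account of the pairing of arrays, and the 34 dimmer sets carry little information on expression.

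Mpo encodes myeloperoxidase, the enzyme of neutrophil primary granules that makes hypochlorous acid, and it is the nearest neighbour on the higher side with a probe set. Unstimulated WT arrays read 2.92, 2.25 and 2.48, and unstimulated KO arrays read 4.58, 5.70 and 3.28. After LPS, WT arrays read 2.64, 2.89 and 2.80 and KO arrays 4.44, 5.29 and 3.50. Every KO array lay above every WT array, and KO array 3 was the lowest of its genotype in both states. The difference was 1.97 ± 0.52 (SE) unstimulated and 1.64 ± 0.52 after LPS, with limma adjusted p of 0.220 and 0.207. Averaged over both states it was 1.80 ± 0.36 (limma adjusted p = 0.0272), with a 95% interval from 1.01 to 2.59.

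The Mpo call depended on single arrays. Leaving out each array in turn gave averaged differences of 1.51 to 2.11 and limma adjusted p from 0.00596 to 0.0734, and the call was lost without any one of the 6 WT arrays or without unstimulated KO array 1. Without KO LPS array 2 the difference was 1.58 ± 0.33 (limma adjusted p = 0.0215). Without unstimulated KO array 3 the unstimulated difference alone was 2.59 and passed (limma adjusted p = 0.0457). With both arrays of each genotype and number averaged first, the adjusted p was 0.181 in limma.

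Neutrophil markers were also higher in KO. The list had 14 of 16 genes measured, and 9 of the 14 were called higher in KO in the averaged comparison, with a median difference of 2.63. On unstimulated WT arrays its mean log2 signal was 4.01, 3.89 and 3.14, and on unstimulated KO arrays 6.93, 7.35 and 5.06. After LPS it was 3.98, 3.96 and 3.09 in WT and 6.73, 6.86 and 4.96 in KO. KO array 2 was highest and KO array 3 lowest for both Mpo and the list in each state. The WT arrays did not share an order. There the list was lowest on array 3 in each state, and Mpo was not.

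The summed linear signal of the list ran from 239 to 1014 in unstimulated WT, 2363 to 7608 in unstimulated KO, 217 to 930 in WT after LPS and 2230 to 6464 in KO after LPS. The granule genes Camp and Lcn2 were higher by 4.99 ± 0.53 and 5.19 ± 0.58 (limma adjusted p = 0.000906 and 0.00114). Of the genes whose products share the primary granule with myeloperoxidase, Ctsg rose by 1.37 ± 0.32 (limma adjusted p = 0.0472). Elane and Prtn3 differed by 0.48 ± 0.18 and 0.82 ± 0.29 and did not pass. Markers of other cells moved too. All 6 natural killer cell markers were called higher in limma, with a median of 1.78. The 4 platelet markers had a median of 1.25 and 0 calls, and the 3 erythroid markers 0.78 and 1 call. Of 11 DC markers 2 were called lower and 0 higher, with a median of -0.22. That median was -0.05 unstimulated and -0.31 after LPS. The mean log2 signal of the DC markers was 5.9 on KO LPS array 2 and 6.47 to 6.84 on the other arrays. Of 5 B cell markers 1 was called higher and 1 lower, Jchain, at -3.54. No T cell, macrophage or cycling marker was called, of 6, 9 and 7 measured. The part of other cells in the Mpo difference was not tested, and in bulk RNA more cells of a type cannot be told apart from more RNA per cell.

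The other 2 haem peroxidase genes lie in the same cluster and did not follow Mpo past the threshold. On every array both read below 2.87, the median of all values, and such low values carry little information about expression. Lpo encodes lactoperoxidase of secretions, and its differences were 0.04 ± 0.15 unstimulated and 0.02 ± 0.15 after LPS. Its averaged difference was 0.03, with a 95% interval from -0.19 to 0.25 (limma adjusted p = 0.921). These were, without KO LPS array 2, 0.22 after LPS and 0.13 averaged, with limma adjusted p of 0.527 and 0.390. Epx encodes the peroxidase of eosinophil granules. It read 1.95, 2.03 and 2.02 on unstimulated WT arrays and 2.15, 2.32 and 2.10 on KO arrays, which did not overlap. After LPS it read 2.34, 1.99 and 2.13 in WT and 1.92, 2.05 and 2.02 in KO, which did. The averaged difference of Epx was 0.02 ± 0.08 (limma adjusted p = 0.951), with a 95% interval from -0.15 to 0.18. Of 6 measured eosinophil markers, 1 was called higher in KO, the lipoxygenase gene Alox15.

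**Figure D2:**
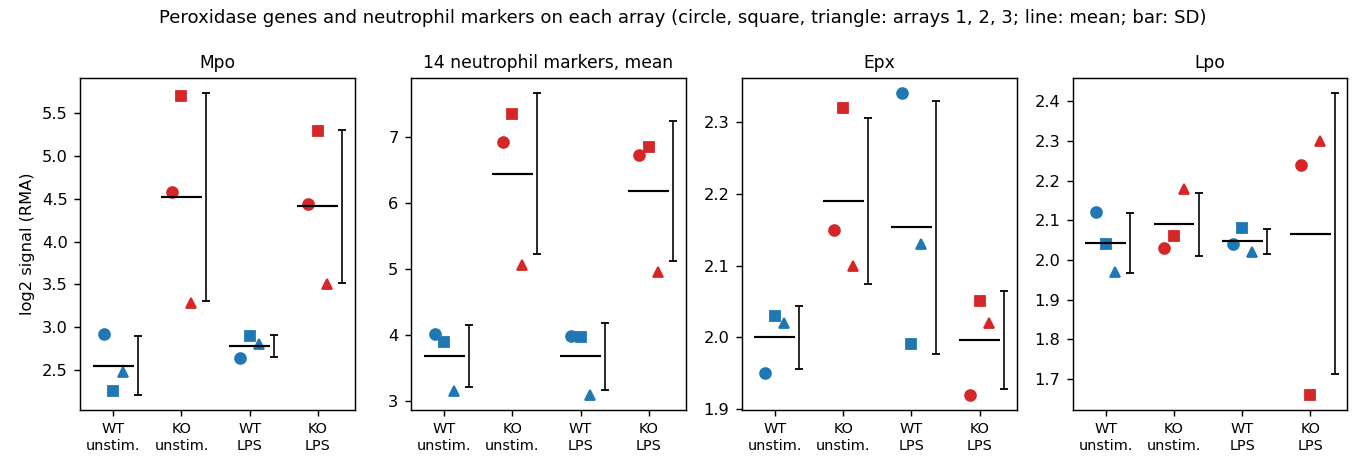
Log2 signal on each array for Mpo, for the mean of 14 neutrophil markers, for Epx and for Lpo, by group (points are arrays, lines are means, bars are SD over 3 arrays, and each panel has its own scale). Mpo and the marker mean are higher on every KO array with the same array lowest among KO, while Epx and Lpo stay between 1.66 and 2.34 on all arrays.

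Mtmr4 encodes a myotubularin-type lipid phosphatase of endosomes, and it lies 7 annotated genes from Mir142 on the lower side. Its probe set 1418150_PM_at read 3.17, 3.37 and 3.21 on unstimulated WT arrays and 2.52, 2.54 and 2.81 on unstimulated KO arrays. After LPS it read 2.94, 3.31 and 3.22 in WT and 2.49, 2.60 and 2.48 in KO. Every KO array lay below every WT array, with the closest pair at 2.81 and 2.94. Every KO value also lay below 2.87, the median of all values, and such low values carry little information about expression. The difference was -0.63 ± 0.12 in each state, with limma adjusted p of 0.0788 unstimulated and 0.0539 after LPS. Averaged, it was -0.63 ± 0.09 (limma adjusted p = 0.00357), with a 95% interval from -0.82 to -0.44.

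This was the steadiest of the 3 calls. It passed in each of the 12 fits that left out an array, with differences from -0.68 to -0.59 and limma adjusted p from 0.00197 to 0.0143. Without KO LPS array 2 it was -0.65 ± 0.09 (limma adjusted p = 0.00197), and the unstimulated difference then passed as well (adjusted p = 0.0316 in limma). With the paired arrays averaged first it did not pass, at an adjusted p of 0.0673 in limma.

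The second Mtmr4 probe set, 1418151_PM_at, gave another picture. It read 4.46, 4.74 and 4.90 in unstimulated WT and 4.31, 4.23 and 4.74 in unstimulated KO. After LPS it read 4.51, 4.82 and 4.72 in WT and 4.23, 5.17 and 4.40 in KO. The genotypes overlapped in both states, and KO LPS array 2 held the highest value of all 12. The averaged difference was -0.18 ± 0.16 (limma adjusted p = 0.628), with an interval from -0.52 to 0.16, and without KO LPS array 2 it was -0.32 ± 0.11 (limma adjusted p = 0.173).

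The fall of the first probe set relative to the second was compared within arrays, a comparison chosen after the values were seen. The gap between the 2 sets changed by -0.449 between genotypes when the arrays of one genotype and number were averaged. The KO and WT values did not overlap, and the exact two-sided permutation test gave p = 0.1, the smallest that 3 against 3 allows. Unstimulated alone the change was -0.349 (exact permutation p = 0.2), and after LPS -0.549 (exact permutation p = 0.1), a value of -0.304 without KO LPS array 2. Where on the transcript the probes of each set lie was not analysed here.

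Usp32 encodes a ubiquitin-specific protease, and it lies 2616.9 kb from Mir142 on the lower side, with 22 listed neighbours closer to Mir142 on that side. Its probe set 1436159_PM_at read 4.95, 4.87 and 5.04 on unstimulated WT arrays and 5.56, 5.81 and 5.30 on KO arrays. After LPS it read 5.08, 5.17 and 4.67 in WT and 5.61, 6.15 and 5.22 in KO. Every KO array lay above every WT array, with the closest pair at 5.22 and 5.17. The difference was 0.60 ± 0.21 unstimulated (limma adjusted p = 0.427) and 0.69 ± 0.21 after LPS (limma adjusted p = 0.197). Without KO LPS array 2 the difference after LPS was 0.44 ± 0.18 (limma adjusted p = 0.436). Averaged, it was 0.65 ± 0.15 (limma adjusted p = 0.0474), with a 95% interval from 0.32 to 0.97.

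That call sat at the threshold. It was kept in only 3 of the 12 fits that left out an array, those without unstimulated KO array 3, KO LPS array 2 or KO LPS array 3, with limma adjusted p from 0.0117 to 0.125 over the 12. Without KO LPS array 2 the difference was 0.52 ± 0.12 (limma adjusted p = 0.0322). It was lost with each genotype and number as a random block (adjusted p = 0.0686 in limma) and with paired arrays averaged first (adjusted p = 0.203). The second probe set of Usp32 differed by 0.40 ± 0.21 (limma adjusted p = 0.384), or by 0.22 without KO LPS array 2. Its KO and WT arrays overlapped in both states.

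**Figure D3:**
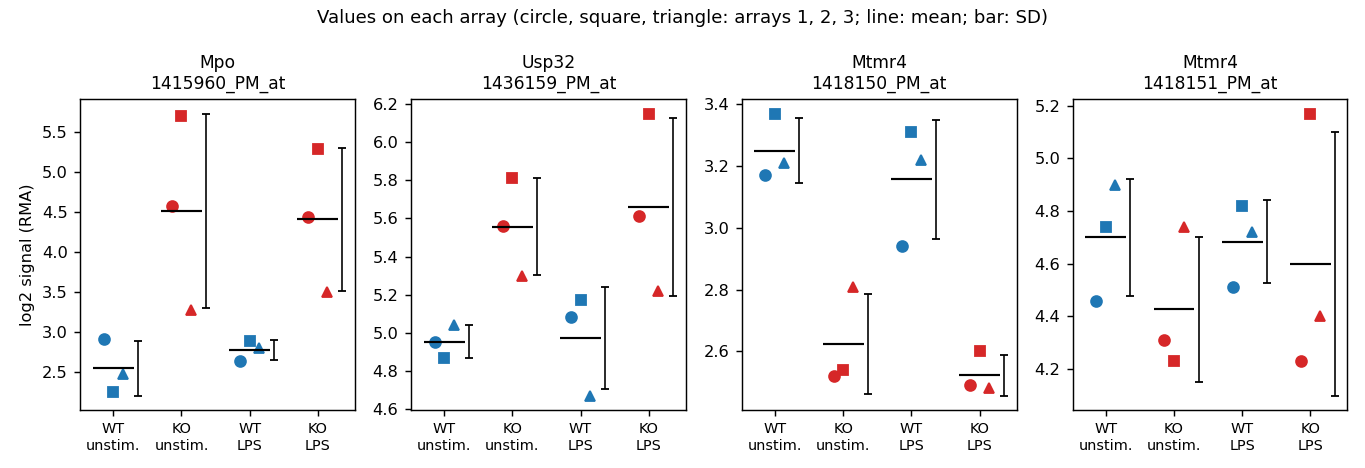
Log2 signal on each array for the called probe sets of Mpo, Usp32 and Mtmr4 and for the uncalled second set of Mtmr4, by group (points are arrays, lines are means, bars are SD over 3 arrays, and each panel has its own scale). In the first 3 panels no KO array overlaps a WT array, while in the fourth the genotypes overlap and KO LPS array 2 is highest at 5.17.

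Among the nearest genes, Rnf43, Hsf5 and Mks1 did not pass in either state. Rnf43 encodes a membrane ubiquitin ligase that lowers Wnt receptor levels. It read 1.57, 1.50 and 1.58 in unstimulated WT and 1.10, 1.29 and 1.14 in unstimulated KO, and the groups did not overlap. After LPS it read 1.46, 1.32 and 1.16 in WT and 1.42, 1.56 and 1.54 in KO, which overlapped. The difference was -0.37 ± 0.10 unstimulated (limma adjusted p = 0.264) and 0.19 ± 0.10 after LPS (limma adjusted p = 0.439). The effect of LPS differed between genotypes by 0.56 ± 0.15, which had an unadjusted p of 0.00232 and a limma adjusted p of 0.957. All of these values lie below 2.87, the median of all values.

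Hsf5, a heat shock factor family member known from the testis, had an averaged difference of 0.01 ± 0.07. Mks1, a gene of the ciliary transition zone, had -0.07 ± 0.10. The 2 probe sets of the long non-coding RNA gene 1110028F11Rik, which lies 3 annotated genes from Mir142 and is not on the list, differed by 0.01 ± 0.07 and by less than 0.01. None of these passed.

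By role, the 9 genes of DNA repair, cell division and the cilium had 16 probe sets, of which limma called 0 in the averaged comparison and 12 had a positive difference, with a median of 0.087. The median was 0.052 without KO LPS array 2, with 11 positive. Brip1, a helicase partner of the BRCA1 protein, differed by 0.20 ± 0.10 (limma adjusted p = 0.335), or by 0.14 without that array. Membrane traffic and motor genes had 6 probe sets from 4 measured genes, all with a negative difference, with a median of -0.164. Of the 6, 5 were negative without KO LPS array 2, with a median of -0.096. Only the Mtmr4 set among them passed. Vmp1, an endoplasmic reticulum protein of autophagosome formation, differed by -0.19 ± 0.13 in its brighter set, and by -0.05 without KO LPS array 2. Dynll2, a dynein light chain, differed by -0.15 ± 0.14, and by -0.25 to -0.05 with each array left out in turn.

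The 8 measured transcription and RNA genes had 19 probe sets and 0 calls, with a median of 0.011, or -0.012 without KO LPS array 2. Med13, of the Mediator kinase module, had 4 sets with averaged differences from -0.29 to 0.21, and the lowest of these was -0.13 without that array. Srsf1, a splicing factor, had 4 sets from -0.43 to 0.13, the widest spread of any gene with several sets. Its lowest set read 3.47 on KO LPS array 2 and 4.85 to 5.66 on the other 11 arrays, and its difference was -0.16 without that array. Vezf1, a zinc finger transcription factor, differed by 0.20 ± 0.12 in its brightest set (limma adjusted p = 0.471), and by 0.09 without KO LPS array 2.

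The ubiquitin group held Rnf43, Usp32 and Trim25 with 4 probe sets and 1 call. Of the signalling genes 3 were measured, with 5 sets, 0 calls and a median of -0.045, or -0.028 without KO LPS array 2. Akap1, an anchor for protein kinase A at mitochondria, differed by -0.18 ± 0.08 in its brighter set (limma adjusted p = 0.289). Dgke, a diacylglycerol kinase and the outermost gene on the higher side, had 1 set whose genotypes lay apart in both states. That set read 2.54, 2.55 and 2.66 in unstimulated WT, 2.49, 2.35 and 2.40 in unstimulated KO, 2.61, 2.42 and 2.39 in WT after LPS and 2.35, 2.07 and 2.28 in KO after LPS. Its averaged difference was -0.20 ± 0.08 (limma adjusted p = 0.204), and the other Dgke set had 0.09 ± 0.11, or 0.04 without KO LPS array 2. The remaining 6 genes, Ypel2, Heatr6, Bcas3, Cuedc1, Mrps23 and Scpep1, had 18 sets, 0 calls and a median of -0.021, or -0.072 without KO LPS array 2. The brightest set of Heatr6 differed by 0.08, and its dimmer sets by -0.29, -0.28, -0.03 and 0.13. Without KO LPS array 2 the brightest was at -0.02, and the dimmer ones, in the same order, at -0.26, -0.29, -0.01 and -0.09. Scpep1 had a dimmer set at -0.28, where its brightest set differed by -0.12. These were at -0.19 and -0.24 without that array.

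Genes with several probe sets gave a check on each other. There were 20 such genes, and in 11 of them the sets had averaged differences of both signs. Only Mtmr4 and Usp32 among them had a called set, 1 each. No gene therefore had 2 called sets whose directions could be compared. The range between a gene's sets had a median of 0.216 and reached 0.553 in Srsf1. Beside that median of 0.216, the median absolute difference between genotypes over the 71 sets was 0.105. All of these values include KO LPS array 2. Without it the Srsf1 sets ran from -0.16 to 0.04, and the median absolute difference was 0.089. The median range was not computed without that array.

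**Figure D4:**
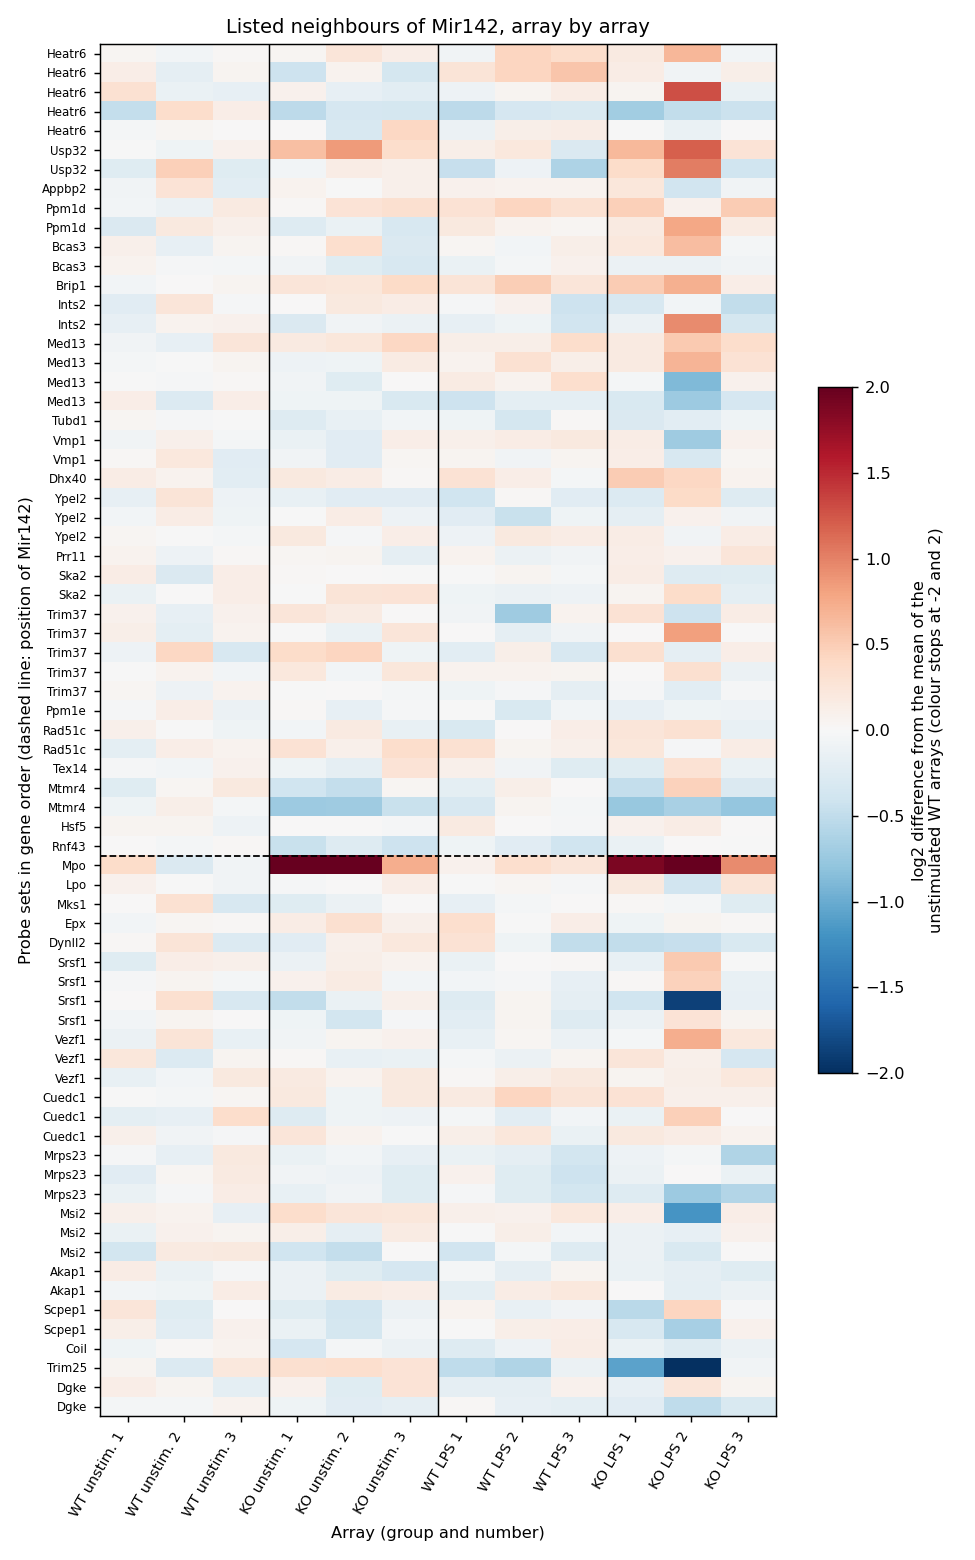
Log2 difference of every array from the mean of the unstimulated WT arrays for the 71 probe sets in gene order (colour scale from -2 to 2, columns are the 12 arrays by group, the dashed line is the position of Mir142). Mpo is the one row raised on all 6 KO arrays by a large step, and KO LPS array 2 shows scattered highs and lows in many rows.

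The differences in both states were set side by side. Their signs were the same for 41 of the 71 probe sets (57.7%), beside 60.8% of all probe sets. The effect of LPS did not differ between genotypes for any of them by limma, which called 0 of 71 and 0 of all 28898 (0%). At an unadjusted p under 0.05 there were 2 of 71, Rnf43 and Epx, beside 3.95% of all.

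**Figure D5:**
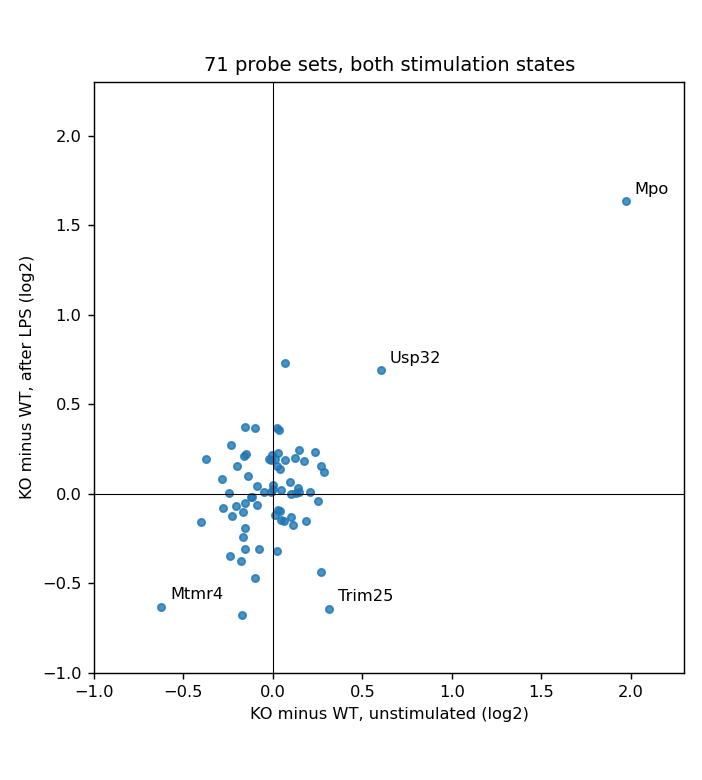
KO minus WT difference (log2 signal) after LPS against the same difference in unstimulated cells, with 1 point for each of the 71 probe sets. Mpo lies at 1.97 and 1.64, Usp32 at 0.60 and 0.69, Mtmr4 at -0.63 in both, the second Usp32 set at 0.07 and 0.73, the lowest Srsf1 set at -0.17 and -0.68 and Trim25 at 0.31 and -0.64. Without KO LPS array 2, not drawn, the values after LPS were 0.44 and 0.38 for the Usp32 sets, -0.15 for that Srsf1 set and -0.17 for Trim25.

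LPS itself moved none of these genes past the threshold. In WT limma called 0 of 71 where 0.128% of all probe sets were called, and 6 of 71 had an unadjusted p under 0.05, beside 4.93% of all. In KO it called 0 of 71 where 0.301% of all were called, and 7 of 71 had an unadjusted p under 0.05, beside 9.53%. LPS and unstimulated arrays lay apart for 8 of 71 probe sets in WT, beside 11.7% of all, and for 11 in KO, beside 13.5%.

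Trim25, which encodes a ubiquitin ligase of the antiviral RIG-I pathway, had the largest LPS difference among these genes. It read 6.08, 5.76 and 6.25 on unstimulated WT arrays, 5.52, 5.43 and 5.92 in WT after LPS, 6.35, 6.37 and 6.31 on unstimulated KO arrays and 4.95, 4.03 and 5.96 in KO after LPS. The KO arrays given LPS lay below all unstimulated KO arrays, and KO LPS array 2 was the lowest. The LPS difference in KO was -1.36 ± 0.35 (limma adjusted p = 0.190), and in WT -0.41 ± 0.35. Without KO LPS array 2 the KO value was -0.89 ± 0.24 (limma adjusted p = 0.229). KO differed from WT after LPS by -0.64 ± 0.35 (limma adjusted p = 0.435), a value of -0.17 without KO LPS array 2. Without KO LPS array 3 it was -1.13 and passed (limma adjusted p = 0.0431). In that fit limma also called the LPS difference of Trim25 in KO. So this gene's values rested on which KO array was left out.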

How the data were processed

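The deposited values are log2 signals of 12 Affymetrix arrays, normalised by the authors with RMA (version not given) per the submitters' processing notes. Of 45141 probe sets, 104 controls, 551 with several symbols and 15588 without a symbol were left out, and 28898 were tested, of which 28689 matched RefSeq by Entrez number. The array tables name no genome build; gene order, distances and sequences come from RefSeq GRCm38.p6.

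Group means were fitted with limma 3.58.1 in R 4.3.3 (lmFit, eBayes, 12.4 degrees of freedom), with Benjamini-Hochberg adjustment over all probe sets within each comparison. Named genes were the called ones, the 5 largest rises and falls by each gene's probe set of highest mean, the 3 nearest on each side and the peroxidases. The members and lists were chosen with earlier results of these data known. The fit was tested on simulated data with arrays drawn independently, in the unstimulated KO versus WT comparison. It called 28% of 50 simulated differences of 0.5, 78% of those of 1, 82% of those of -1 and 96% of those of 2. It also called 7 probe sets with no simulated difference. A true difference near 0.5 in 1 state would therefore often be missed.

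In WT, unstimulated and LPS arrays with the same number deviated together (r = 0.352, 0.220 and 0.385), as they did in KO (r = 0.263, 0.250 and 0.387). The reported fit has no block for these pairs, which the labels do not give, so its p-values may be too small. The pairs enter only the alternatives, whose values stand beside the calls they change. Across genotypes the correlations of same-numbered arrays ran from -0.004 to 0.209, and they were not paired.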

Additional observations from a re-analysis of the deposited data

How the results depend on the processing

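The values below are numbers of called probe sets, first over all 28898 and then over the 71 of the neighbours. With array weights, unstimulated KO versus WT gave 202 and 1, after LPS 1 neighbour, averaged 1136, LPS in WT 79 and LPS in KO 155. With the replicate number as a block over all arrays (replicate block) these were 222 and 1, 373 and 1, 1267, 80 and 135, and the neighbour was Mtmr4 each time. With the random block the averaged count was 406, LPS in WT 74 and LPS in KO 154, and with the block within genotype the LPS counts were 106 and 198. Pair means, added after the data were seen, gave 60 and 0. The 6 arrays of one state alone gave 115 unstimulated and 0 after LPS, and 1 probe set per gene gave 20 for LPS in WT. Leaving out each array in turn gave 6 to 246 unstimulated (neighbours 0 to 1), 2 to 511 after LPS (0 to 2), 260 to 1243 averaged (1 to 3), 11 to 104 for LPS in WT and 42 to 134 for LPS in KO (0 to 1). For the named genes no called value reversed, and over all settings 1498 values kept their side of the threshold. Of these, 55 uncalled values changed sign. A further 21 lost the call, 8 gained it and 3 moved. The causes were not tested. Usp32 was also lost with array medians centred (limma adjusted p = 0.0524). The 1 set per gene fit does not hold the called Mtmr4 set, whose mean is the lower of the 2. The 4 probe sets that name a neighbour and a second gene were not called (averaged limma adjusted p from 0.333 to 0.986). With 3 arrays a group, the number of arrays limits the precision.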
